A study of Mus musculus with 5 samples.

Results

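The core circadian clock of mammals was read in tumour RNA from 10 genes, Per1, Per2, Per3, Dbp, Nr1d1, Nr1d2, Arntl, Clock, Cry1 and Cry2. They were picked by symbol from the 54113 named entries of the count table, which holds each of them once. The RNA is labelled as that of CRC tumours in C57BL/6 mice, which per the study's methods grew from implanted MC-38 cells, a mouse colon adenocarcinoma line. Of the 5 tumours, 3 came from mice kept at 30 °C, close to thermoneutrality, and 2 from mice kept at 4 °C, each for 2 weeks. No gene was altered and no drug is named for these mice. The labels give neither their age nor their sex, and the study's methods name young mice of both sexes without saying which these were. All tumours derive from 1 cell line, and a tumour also holds cells of its host. The study's methods describe a light–dark cycle for the time before exposure, and the hour at which each tumour was removed is not given in the sources used here. The study calls the 5 biological samples and implanted each mouse separately, but the labels do not tie a sample to a mouse. The p-values measure the spread between these samples.

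The clock is a loop of transcription that runs once a day in nearly every cell. CLOCK and BMAL1, the product of Arntl, bind together to E-box elements and switch on the Per and Cry genes, whose proteins return to the nucleus and block CLOCK and BMAL1. A second loop runs through Nr1d1 and Nr1d2, which encode the nuclear receptors REV-ERBα and REV-ERBβ and hold down Arntl through RORE elements. Dbp is a direct target of CLOCK and BMAL1 and encodes an activator that passes the rhythm on through D-box elements. In mouse tissues, transcripts of Dbp, Nr1d1 and the Per genes swing widely over the day, Arntl peaks at the opposite time, and Clock changes little. A level at a single hour therefore holds the phase as well as the strength of the clock.

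Named genes received between 16191708 and 20320525 counts in a library. Values are given as CPM, the counts of a gene in each 1000000 counts of its library, scaled by the TMM method of edgeR, in which 30 °C replicate 2 had the lowest factor (0.738). That library stood apart, since 28 pancreatic acinar genes made up 281693 of each 1000000 counts in it, against 2740 in 4 °C replicate 2 and between 21.4 and 84.2 in the other 3. The tissue label was set against lists of markers. The 10 epithelial and colon carcinoma genes summed to between 19.4 and 125 CPM without TMM scaling, while 10 B cell genes summed to between 4813 and 12332 and 10 erythroblast genes to between 14723 and 41400. These sums do not bear out a tissue made up mainly of carcinoma cells in any of the 5 libraries. No profile of MC-38 cells alone was set beside them, so how much tumour each holds is unknown. Below, a tumour means a library so labelled. None of the markers was at 0 in all 5 libraries. In such bulk RNA, fewer cells of a type and less RNA per cell cannot be told apart.

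Promoter sequences of the clock genes were searched for the elements named above. RefSeq windows from 250 bases before to 50 bases after a start site (GRCm38.p6, the build of the counts) were at hand for 9 of the 10 genes, in 13 windows. Per2 had none. Both strands were searched for the E-box CACGTG, the E'-box CACGTT, the D-box TTANGTAA, the RORE (an A, any 2 bases, a T and then AGGTCA), the cAMP response element TGACGTCA and the heat shock element GAANNTTC. None of the matches found overlapped another. The stretches below are shown because they hold the matches, which are in capitals. Where AACGTG is in capitals, it is the E'-box read on the other strand.
Per1: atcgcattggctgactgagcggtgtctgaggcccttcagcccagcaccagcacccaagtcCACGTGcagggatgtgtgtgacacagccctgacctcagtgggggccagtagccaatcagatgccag
Cry1: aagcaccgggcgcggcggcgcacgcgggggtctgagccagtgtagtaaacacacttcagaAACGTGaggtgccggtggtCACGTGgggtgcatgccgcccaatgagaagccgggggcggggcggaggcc
Cry2: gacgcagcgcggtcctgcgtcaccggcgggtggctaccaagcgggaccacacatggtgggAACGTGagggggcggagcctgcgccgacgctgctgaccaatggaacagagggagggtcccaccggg
Nr1d1: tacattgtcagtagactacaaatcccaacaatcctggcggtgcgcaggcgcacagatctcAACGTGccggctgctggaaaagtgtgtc
Per3: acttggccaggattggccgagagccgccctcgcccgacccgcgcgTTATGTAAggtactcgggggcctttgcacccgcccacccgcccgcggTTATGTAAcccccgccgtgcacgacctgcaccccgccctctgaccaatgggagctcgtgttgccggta
Arntl: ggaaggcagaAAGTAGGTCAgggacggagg
Dbp: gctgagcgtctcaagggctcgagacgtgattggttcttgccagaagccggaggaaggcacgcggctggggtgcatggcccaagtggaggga

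The Per1 stretch (chr11:69098723-69098848, plus strand) lies in an intron of the longest annotated form of Per1 and upstream of the RefSeq start used, with the E-box at position −166 from that start. The Cry1 stretch (chr10:85185065-85185193, minus strand) lies just upstream of the gene and holds an E'-box at position −79 and an E-box at position −60. In Cry2 (chr2:92434170-92434295, minus strand) the E'-box lies at position −166, and in Nr1d1 (chr11:98775378-98775465, minus strand) at position −28. Both stretches are outside annotated genes. Per3 (chr4:151044756-151044915, minus strand, within an intron of Camta1) holds 2 D-boxes, at positions −205 and −158. The Arntl stretch (chr7:113207528-113207557, plus strand) is exonic, with the RORE at position 27 after a start. The Dbp window held no match, and its part before the first annotated exon is printed (chr7:45704997-45705087, plus strand). Of all 32851 windows, 7.15% held an E-box, 4.68% an E'-box, 2.32% a D-box and 0.7% a RORE. Neither the cAMP response element nor the heat shock element occurred in a clock window, against 1.79% and 7.86% of all windows. These matches describe letters and were not measured as bound sites.

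**Figure D1:**
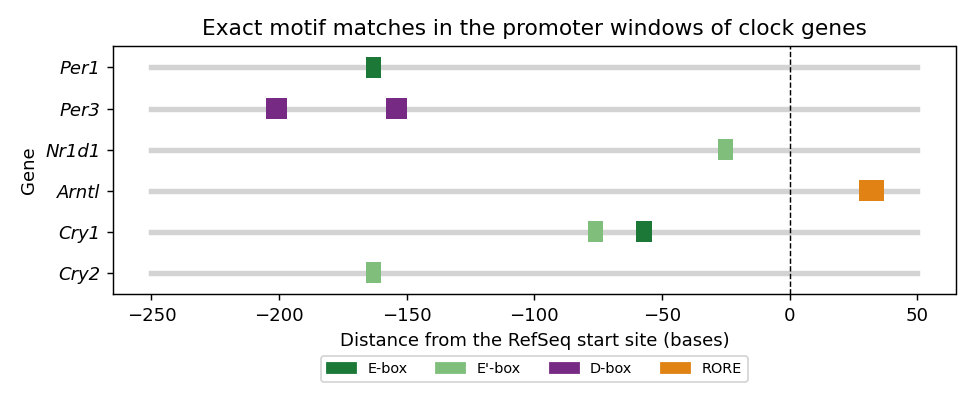
Exact motif matches in the promoter windows of the 6 clock genes that held one. The x axis gives the distance in bases from the RefSeq start site (dashed line), each grey line is a window from 250 bases before to 50 after it, and each block is a match, with the D-boxes of Per3 at −205 and −158 and the E-box of Cry1 at −60.

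Between 4 °C and 30 °C, none of the 10 clock genes passed an adjusted p of 0.05. All 10 were among the 16133 genes that passed the filter on low counts. The edgeR quasi-likelihood test with Benjamini-Hochberg adjustment called 0 of the 10 clock genes and 0 genes in all (0% of those tested), and the Wald test of DESeq2 called 0 of the 9 clock genes it gave an adjusted p (Per3 got none), against 118 of 11697 genes with one (1.01%). At an unadjusted p under 0.05, 1 clock gene differed, Dbp, where 6.76% of all genes tested did. The groups did not overlap in 2 of the 10, with Dbp above at 4 °C (12.2% of all genes) and Cry2 below (11% of all genes), or 23.3% of all genes in either direction. Log2 fold changes were above 0 in 5 of the 10, against 50.7% of all genes, and their median was 0.0055, against 0.0064 over all genes. As a group, the clock genes lay around a log2 fold change of 0, in shares close to those of all genes except at the unadjusted threshold, which a single gene passed.

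**Figure D2:**
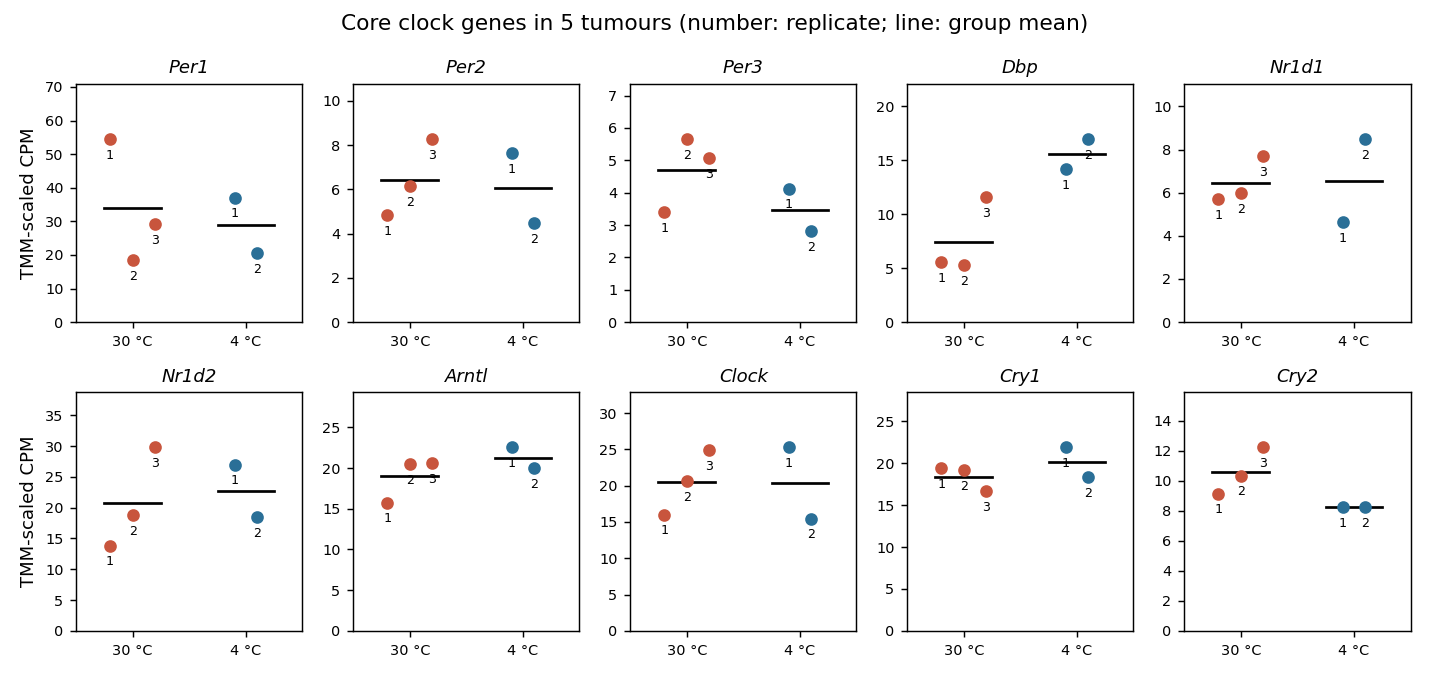
TMM-scaled CPM of each core clock gene in the 3 tumours at 30 °C (red) and the 2 at 4 °C (blue), on linear axes from 0 that differ between genes. Points are tumours with their replicate number and lines are group means. Both tumours at 4 °C lie above all 3 at 30 °C for Dbp and below them for Cry2, and the groups overlap for the other 8 genes.

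Dbp, the clock output activator (chr7:45705088-45710203, ENSMUSG00000059824.12), had the largest difference of the 10. It stood at 5.53, 5.26 and 11.6 CPM in 30 °C replicates 1, 2 and 3 and at 14.2 and 17.0 CPM in 4 °C replicates 1 and 2. Both tumours at 4 °C were thus above all 3 at 30 °C, with 30 °C replicate 3 nearer to them than to the other 2 of its group. The mean was 7.45 ± 3.57 CPM (SD, n = 3) in the tumours at 30 °C. In those at 4 °C it was 15.6 ± 1.97 CPM (SD, n = 2), a 2.10-fold ratio. In the edgeR fit the log2 fold change was 1.06 (standard error 0.39, 95% interval 0.12 to 2.00) with an adjusted p of 0.71, and the DESeq2 Wald test gave an adjusted p of 0.32. It did not pass the threshold over all genes.

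Log2 fold changes of Dbp were between 0.86 and 1.53 when each tumour was left out in turn. As the groups did not overlap, leaving out a single tumour could hardly turn their sign. In 4 of these 5 edgeR fits, however, the unadjusted p was no longer under 0.05 (0.061 without 30 °C replicate 1, 0.084 without 30 °C replicate 2, 0.072 without 4 °C replicate 1 and 0.14 without 4 °C replicate 2). Without both libraries richest in acinar transcripts, the edgeR fit gave 0.72 with an unadjusted p of 0.22. Its counts ran from 64 to 286 a library, for which the 95% Wilson interval has a half-width of 24.7% to 11.6% of the value and covers counting error only. Without TMM scaling it stood at 5.95, 3.87 and 13.0 CPM at 30 °C and at 15.4 and 17.5 CPM at 4 °C, again without overlap. Sphk2, which encodes a sphingosine kinase and runs on the other strand, shares 539 exonic bases with Dbp, or 18.0% of the exonic length of Dbp. The strand setting of the counting is not given in the sources used here, so reads of that stretch cannot be assigned to 1 gene with certainty. Sphk2 itself averaged 37.9 ± 1.41 CPM (SD, n = 3) in the tumours at 30 °C and 38.3 ± 2.87 CPM (SD, n = 2) in those at 4 °C.

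Summed markers of T cells, B cells and splenic cells were higher in both tumours at 4 °C, as Dbp was. The T cell and splenic sums followed the order of Dbp except between 30 °C replicates 1 and 2. Dbp itself was close in these replicates, at 5.53 and 5.26 CPM. The B cell sum also differed from that order between the tumours at 4 °C. The 8 genes of the T cell list summed to 272, 314 and 437 TMM-scaled CPM in 30 °C replicates 1, 2 and 3 and to 582 and 621 CPM in 4 °C replicates 1 and 2. For the 10 B cell genes these sums were 5539, 6536 and 9754 CPM at 30 °C and 11415 and 10613 CPM at 4 °C. The 9 genes of splenic stroma and red pulp summed to 632, 673 and 808 CPM at 30 °C and to 880 and 984 CPM at 4 °C. All 3 sums were thus higher in both tumours at 4 °C than in any at 30 °C, with 30 °C replicate 3 in between, as for Dbp. Of all single genes, 12.2% were higher in both tumours at 4 °C. The sums of the acinar, erythroblast, neutrophil, epithelial and fibroblast markers overlapped between the groups.

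Per 1000 counts on the T cell list, Dbp had 20.3, 16.7 and 26.5 counts in 30 °C replicates 1, 2 and 3 and 24.4 and 27.4 in 4 °C replicates 1 and 2, and the groups overlapped. Per 1000 counts on the splenic list it had 8.76, 7.81 and 14.3 counts at 30 °C and 16.2 and 17.3 at 4 °C, without overlap. Per 1000 counts on the B cell list it had 0.999, 0.804 and 1.19 counts at 30 °C and 1.25 and 1.60 at 4 °C, also without overlap. The part of these cells in the difference of Dbp was not tested.

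**Figure D3:**
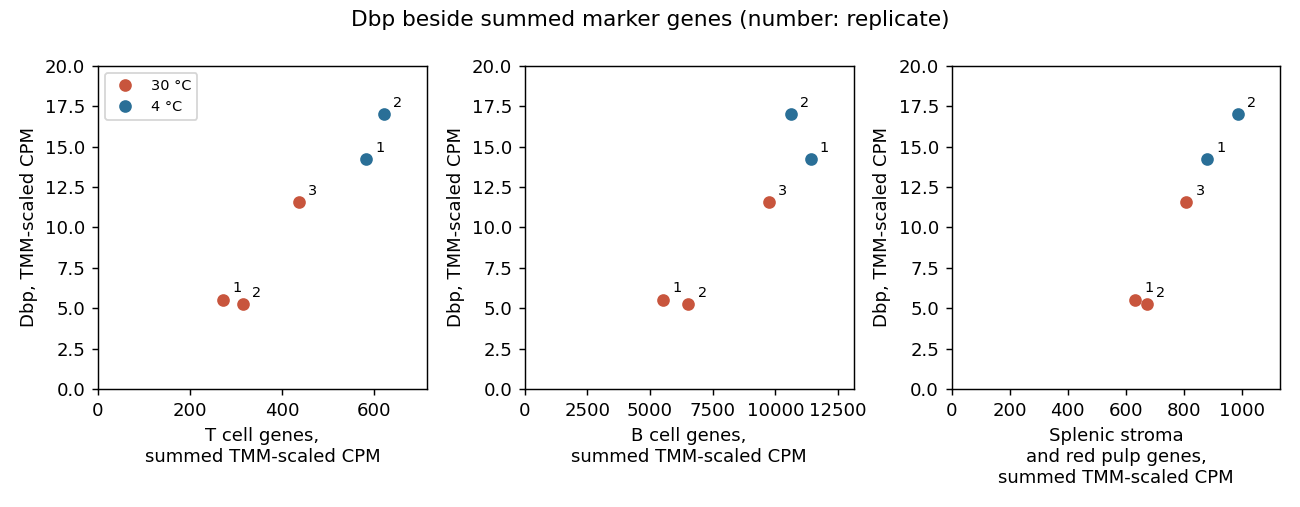
Dbp in TMM-scaled CPM (y axis) against the summed TMM-scaled CPM of the T cell, B cell and splenic stroma and red pulp markers (x axes), for 3 tumours at 30 °C (red) and 2 at 4 °C (blue), with replicate numbers. In each panel 30 °C replicates 1 and 2 lie lowest, near 5.5 CPM of Dbp, and the tumours at 4 °C lie highest.

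The activators Arntl and Clock overlapped between the groups. Arntl (chr7:113207465-113314126, ENSMUSG00000055116.8) stood at 15.8, 20.5 and 20.6 CPM in 30 °C replicates 1, 2 and 3 and at 22.5 and 19.9 CPM in 4 °C replicates 1 and 2. The groups overlapped, and the log2 fold change was 0.16 (standard error 0.21, 95% interval −0.34 to 0.67, edgeR adjusted p = 0.90). Clock (chr5:76209868-76304792, ENSMUSG00000029238.11) stood at 16.0, 20.6 and 24.8 CPM at 30 °C and at 25.3 and 15.5 CPM at 4 °C. Both its highest and its lowest tumour were therefore tumours at 4 °C. The fitted log2 fold change of Clock was −0.0089 (standard error 0.30, 95% interval −0.72 to 0.70, edgeR adjusted p = 0.99).

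Ratios of counts within a library need no scaling. Of the 9 ratios of Dbp to another clock gene, 7 did not overlap between the groups and 2 did. All 9 share the counts of Dbp, whose own levels did not overlap, so they are not separate results. The share over all pairs of genes was not computed. Of the 36 ratios among the other genes, 5 did not overlap, where 23.3% of all single genes did not. These ratios also share genes with each other, and 3 of the 5 had Per3 in them. The count ratio of Dbp to Arntl was 0.351, 0.256 and 0.561 in the tumours at 30 °C and 0.631 and 0.853 at 4 °C, so that the groups did not overlap. The ratio of Dbp to Clock was 0.346, 0.255 and 0.466 at 30 °C and 0.563 and 1.10 at 4 °C, also without overlap. Clock and Arntl, by contrast, were at ratios from 0.775 to 1.21 to each other, and the groups overlapped. The ratios of Dbp that overlapped were those to the repressor genes Per1 and Cry1. Dbp to Per1 was 0.101, 0.284 and 0.398 at 30 °C and 0.384 and 0.828 at 4 °C. Dbp to Cry1 was 0.286, 0.274 and 0.696 at 30 °C and 0.650 and 0.925 at 4 °C.

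The Per genes encode repressors of the loop, and Per1 and Per2 can also be induced within the hour by signals from outside the cell. Per1 (chr11:69095217-69109960, ENSMUSG00000020893.17) was the most variable of the family, at 54.6, 18.5 and 29.1 CPM in 30 °C replicates 1, 2 and 3 and at 37.0 and 20.5 CPM in 4 °C replicates 1 and 2. The 3 tumours at 30 °C thus spanned 2.95-fold and enclosed both tumours at 4 °C. The fitted log2 fold change of Per1 was −0.24 (standard error 0.49, 95% interval −1.43 to 0.94, edgeR adjusted p = 0.94), and it turned to 0.27 without 30 °C replicate 1 and to 0.11 without 4 °C replicate 2. In 30 °C replicate 1 there were 11.3 counts of Per1 to 1 of Per2, against 3.00 to 4.84 in the other 4 libraries. Per1 therefore stood apart from Per2 in a single tumour.

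Per2 (chr1:91415982-91459324, ENSMUSG00000055866.9), the period gene whose loss shortens and weakens the daily rhythm of mice, stood at 4.84, 6.16 and 8.30 CPM at 30 °C and at 7.66 and 4.49 CPM at 4 °C. These groups overlapped. The fit gave Per2 a log2 fold change of −0.082 (standard error 0.37, 95% interval −0.98 to 0.82, edgeR adjusted p = 0.97). Per3 (chr4:151003652-151044665, ENSMUSG00000028957.12) is the member of the family that the core loop can do without. It stood at 3.41, 5.67 and 5.06 CPM at 30 °C and at 4.13 and 2.82 CPM at 4 °C, and the groups overlapped. The fit gave Per3 a log2 fold change of −0.44 (standard error 0.37, 95% interval −1.33 to 0.46, edgeR adjusted p = 0.86). The ratio of Dbp to Per3 was 1.62, 0.928 and 2.28 at 30 °C and 3.45 and 6.04 at 4 °C, without overlap of the groups.

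The cryptochromes encode the strongest repressors of the loop. Cry1 (chr10:85131700-85185064, ENSMUSG00000020038.10) was the steadiest of the 10 genes, with a 1.32-fold span over all 5 tumours. It stood at 19.4, 19.2 and 16.6 CPM at 30 °C and at 21.9 and 18.4 CPM at 4 °C (log2 fold change 0.13, standard error 0.19, 95% interval −0.34 to 0.60, edgeR adjusted p = 0.92). Cry2 (chr2:92403646-92434043, ENSMUSG00000068742.11) stood at 9.15, 10.3 and 12.2 CPM at 30 °C and at 8.26 and 8.27 CPM at 4 °C. Both tumours at 4 °C were below all 3 at 30 °C, and the fit gave Cry2 a log2 fold change of −0.36 (standard error 0.24, 95% interval −0.93 to 0.22, edgeR adjusted p = 0.83). Without TMM scaling the groups overlapped, because 30 °C replicate 2, rich in pancreatic transcripts, then stood at 7.62 CPM against 8.92 and 8.52 CPM at 4 °C. The count ratio of Cry1 to Cry2 needs no scaling. It was 2.12, 1.86 and 1.36 at 30 °C and 2.65 and 2.22 at 4 °C, without overlap. Ratios of Arntl and Dbp to Cry2 did not overlap either. Those of Per1, Per2, Per3, Nr1d1, Nr1d2 and Clock to Cry2 overlapped between the groups.

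The nuclear receptors of the second loop overlapped between the groups. Nr1d1 (chr11:98767932-98775333, ENSMUSG00000020889.11) stood at 5.69, 6.00 and 7.68 CPM at 30 °C and at 4.62 and 8.51 CPM at 4 °C. Its lowest and its highest tumour were thus the 2 at 4 °C. The fitted log2 fold change of Nr1d1 was 0.020 (standard error 0.35, 95% interval −0.83 to 0.87, edgeR adjusted p = 0.99). The ratio of Dbp to Nr1d1 was 0.972, 0.877 and 1.51 at 30 °C and 3.08 and 2.00 at 4 °C, without overlap. Nr1d2 (chr14:18204054-18239127, ENSMUSG00000021775.11) stood at 13.8, 18.7 and 29.8 CPM at 30 °C and at 27.0 and 18.5 CPM at 4 °C (log2 fold change 0.13, standard error 0.36, 95% interval −0.74 to 1.00, edgeR adjusted p = 0.96).

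Nr1d1 shares 263 exonic bases, 8.55% of its exonic length, with Thra on the other strand, which encodes a thyroid hormone receptor. Thra averaged 33.3 ± 8.67 CPM (SD, n = 3) in the tumours at 30 °C and 22.8 ± 2.64 CPM (SD, n = 2) in those at 4 °C (log2 fold change −0.55, standard error 0.26, edgeR adjusted p = 0.76), so Nr1d1 is uncertain to the extent that reads of these bases were counted on it. Annotated antisense transcripts over exons of Arntl (Gm45355) and Cry2 (D930015M05Rik) had at most 2 counts in any library.

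**Figure D4:**
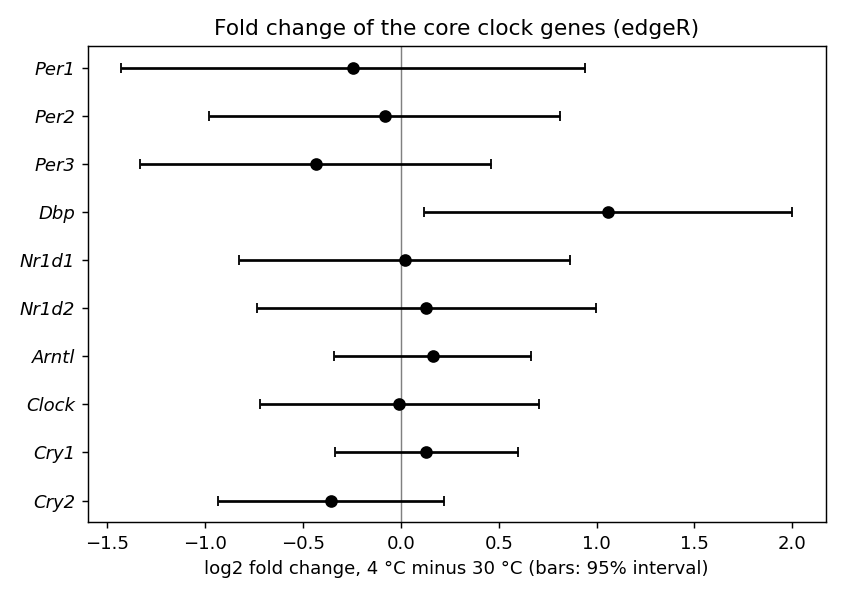
Log2 fold changes of the 10 core clock genes between 4 °C and 30 °C from the edgeR fit over all genes, with bars for the 95% interval of each gene, not adjusted for the number of genes. The interval of Dbp runs from 0.12 to 2.00 and those of the other 9 genes include 0.

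The width of these intervals shows how uncertain each difference is with 3 tumours against 2. They are not adjusted for the number of genes. For Cry1 and Arntl, the 95% intervals reached no farther than −0.34 and 0.67 on the log2 scale. For Per1 the interval reached from −1.43 to 0.94, so a fall as large as the difference of Dbp (1.06) lies within it. In Dbp itself a difference of that size did not pass the adjusted threshold. Lowest counts were 47 for Per3, 64 for Dbp, 73 for Nr1d1 and 75 for Per2, and at least 126 for the other 6 genes, so counting error weighs most on those 4.

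Compared per kilobase of exon, Cry1 and Per1 were the most abundant clock transcripts and Per3 the least. The length counts each exonic base of any annotated form of a gene, so the order also rests on the annotation. Mean levels over the 5 tumours were 5.72 TMM-scaled CPM per kilobase for Cry1 and 5.67 for Per1, followed by 3.99 for Nr1d2, 3.58 for Dbp, 2.64 for Arntl and 2.11 for Nr1d1. The lowest levels were 1.53 for Cry2, 1.49 for Clock, 1.07 for Per2 and 0.439 for Per3. Only Per2 and Per3, of the 9 neighbouring pairs in this order, had ranges over the 5 tumours that did not overlap, 0.767 to 1.42 for Per2 and 0.293 to 0.590 for Per3. Dbp moved most within the order, from 1.76 CPM per kilobase in 30 °C replicate 2 to 5.68 in 4 °C replicate 2, a 3.24-fold span.

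No tumour was high or low for the whole set. Of the 10 genes, 3 were highest in 30 °C replicate 3, 3 in 4 °C replicate 1, 2 in 4 °C replicate 2 and 1 in each of the other tumours. The Per genes, Dbp, Nr1d1 and Nr1d2, whose peaks in mouse tissues are not all at the same hour, were averaged on the log2 CPM scale. This average was set against that of Arntl, Clock and Cry1, which peak at other hours or stay level. As peak hours differ within the averages, their difference does not measure the phase of the clock. The difference of the averages was −0.97, −1.23 and −0.74 in 30 °C replicates 1, 2 and 3 and −1.02 and −0.91 in 4 °C replicates 1 and 2. Its mean was −0.98 ± 0.24 (SD, n = 3) in the tumours at 30 °C and −0.97 ± 0.082 (SD, n = 2) in those at 4 °C, and the difference of 0.013 is smaller than the spread at 30 °C. It ranged from −0.11 to 0.13 when tumours were left out singly.

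Across the 5 tumours, Per2 and Clock ran closest together, with a root mean square distance of 0.064 between their centred log2 CPM, and Per1 and Dbp were farthest apart, at 0.97. This is a description over 5 libraries that share scaling and tissue make-up. Among the 16123 other genes, Gh, Fitm1, Edar, Pxdc1 and Gm20465 lay nearest to Dbp, at distances from 0.098 to 0.14. Of these, Pxdc1 alone stood above 2 CPM, at 18.3, 20.8 and 43.7 CPM at 30 °C and at 52.1 and 51.5 CPM at 4 °C. Nearest to Arntl were Gm9795, Pctp, Iffo1, BC024063 and Gstt2, at distances from 0.020 to 0.035.

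**Figure D5:**
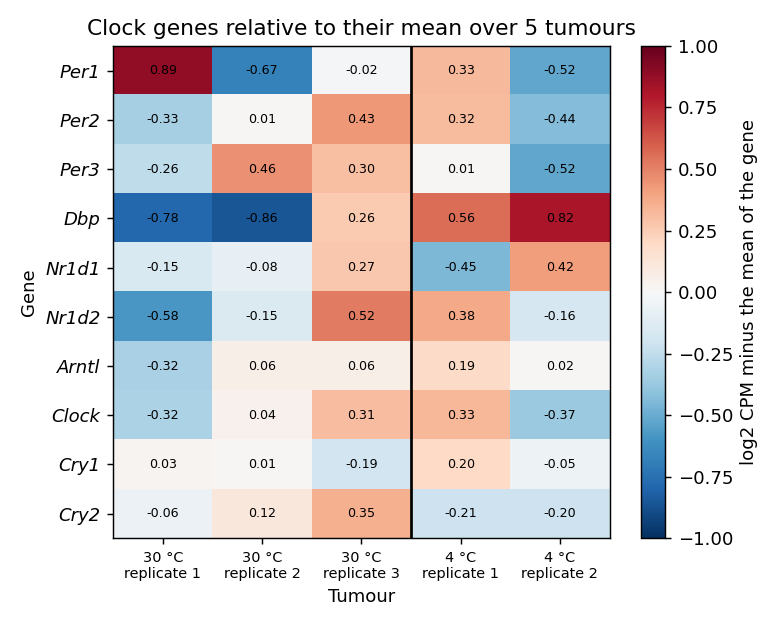
Log2 CPM of each core clock gene minus the mean of that gene over the 5 tumours, with columns for tumours, rows for genes and colour from blue (−1) to red (1). Dbp runs from −0.86 in 30 °C replicate 2 to 0.82 in 4 °C replicate 2, Per1 stands out at 0.89 in 30 °C replicate 1, and no column is of 1 colour.

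Genes that work with the core loop were read from a list of 18, of which 17 were tested and Rorb was too low. It holds the partners and paralogues Npas2 and Arntl2, the ROR receptors, further repressors, and kinases and ubiquitin ligases that time the decay of PER and CRY proteins, among others. None passed the adjusted threshold in either direction. At an unadjusted p under 0.05, 2 of the 17 differed, both lower at 4 °C, where 6.76% of all genes did, and the median log2 fold change was −0.022. Timeless, which is named for a fly clock gene and serves mainly at replication forks in mammals, stood at 51.1, 64.0 and 61.0 CPM at 30 °C and at 37.2 and 26.5 CPM at 4 °C (log2 fold change −0.88, standard error 0.22, edgeR adjusted p = 0.69). Btrc, whose product marks PER proteins for decay, stood at 50.5, 52.3 and 43.9 CPM at 30 °C and at 33.7 and 34.1 CPM at 4 °C (log2 fold change −0.53, standard error 0.17, edgeR adjusted p = 0.69). In both genes the tumours at 4 °C were below all 3 at 30 °C, as in 11% of all genes. Both were named for having the smallest p of the list, in which 3 of the 17 stood so.

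Genes that follow the clock in many mouse tissues were read from a list of 10, which includes Tef and Hlf, relatives of Dbp with the same kind of DNA-binding domain. None of the 10 passed the adjusted threshold, 4 had a log2 fold change above 0 (50.7% of all genes), and the median was −0.12. Tef stood at 24.9, 23.4 and 35.5 CPM at 30 °C and at 34.2 and 27.1 CPM at 4 °C, with a fitted log2 fold change of 0.13 (standard error 0.25, edgeR adjusted p = 0.93), so the groups overlapped in this relative of Dbp. At an unadjusted p under 0.05, 2 of the 10 differed, both lower at 4 °C, where 6.76% of all genes did. Lonrf3 had 1.69 ± 0.672 CPM (SD, n = 3) in the tumours at 30 °C and 0.428 ± 0.0975 CPM (SD, n = 2) in those at 4 °C. Its fitted log2 fold change was −1.94 (standard error 0.56, edgeR adjusted p = 0.69). At 0.497 and 0.359 CPM in 4 °C replicates 1 and 2, counting error weighs more on Lonrf3 than on any clock gene. Wee1, a kinase that holds back mitosis and is driven by CLOCK and BMAL1, stood at 29.3, 34.7 and 30.3 CPM at 30 °C and at 23.0 and 21.2 CPM at 4 °C (log2 fold change −0.51, standard error 0.18, edgeR adjusted p = 0.71).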

How the data were processed

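RNA of 5 tumours, 3 at 30 °C and 2 at 4 °C, was sequenced. The study's methods name featureCounts on the Gencode vM19 annotation for counting aligned reads, and the deposited values are raw counts. The submitters' processing notes name fastp, HISAT, RSEM and GRCm38, so which tool gave the deposited counts is not certain. The strand setting and the handling of reads that map to several genes are not given in the sources used here. All columns of values were used. The 333 entries without a name, with at most 0.0170% of the counts of a library, were left out, and of the 97 symbols with several entries none was a clock gene.

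Counts were analysed in R 4.3.3 with edgeR 4.0.16 (filterByExpr, TMM, robust quasi-likelihood F-test, no covariate), and p-values were adjusted by Benjamini-Hochberg over all 16133 genes tested. A standard error is the log2 fold change divided by the square root of F, and intervals use the t quantile of the fit's degrees of freedom. Log2 CPM used a prior count of 2. Positions and exonic lengths come from GENCODE M21 on GRCm38. The methods were tested on simulated counts. Exact permutation of 3 tumours against 2 has only 10 splits and was not used. Doubling the smallest one-sided p would give a two-sided p of no less than 0.2. The labels name neither a batch nor a date.

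The clock genes, the lists and the markers were chosen with earlier results of these data known. The genes named in the text are the 10 clock genes, the 2 genes of each list with the smallest p, the 5 genes nearest to Dbp and to Arntl by root mean square distance of centred log2 CPM, and genes whose exons overlap those of a clock gene. Tef was named after its values were seen. Alternatives were RLE and upper-quartile scaling, no filter, at least 10 counts in every tumour, the DESeq2 1.42.0 Wald test, no robust estimation, the replicate number as a block, each tumour left out in turn, no acinar genes, plain library sizes and a prior count of 0.5. Leaving out both libraries richest in acinar transcripts was added after seeing the data.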

Additional observations from a re-analysis of the deposited data

How the results depend on the processing

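None of the 10 clock genes passed an adjusted p of 0.05 under any of the 14 alternatives (adjusted p from 0.32 to 1.00, with none given to Per3 by DESeq2). The sign of the log2 fold change was kept under all 14 for Dbp (0.72 to 1.53), Arntl, Cry1, Per3 and Cry2, and Dbp stood at 0.72 without both libraries richest in acinar transcripts, a setting added after seeing the data. The sign turned in the other 5 genes, Per1, Per2, Nr1d1, Nr1d2 and Clock. For Dbp and Cry2, whose groups did not overlap, leaving out a single tumour could hardly turn it. When tumours were left out singly, log2 fold changes ran from −0.73 to 0.27 for Per1, from −0.52 to 0.24 for Per2, from −0.50 to 0.40 for Nr1d1, from −0.17 to 0.49 for Nr1d2 and from −0.41 to 0.29 for Clock. The tumours whose removal turned the sign were 30 °C replicate 1 and 4 °C replicate 2 (Per1), 30 °C replicate 3 and 4 °C replicate 2 (Per2 and Clock), 30 °C replicates 1 and 2 and 4 °C replicate 2 (Nr1d1), and 30 °C replicate 1 and 4 °C replicate 1 (Nr1d2). Without both acinar-rich libraries the values were 0.20 for Per2, −0.55 for Nr1d1 and 0.29 for Clock. With upper-quartile scaling Clock stood at 0.036. A fit that leaves a single tumour at 4 °C assumes that it varies like the others. The difference between the averaged arms of the clock lay between −0.11 and 0.13 with each tumour left out in turn, so its sign rests on single tumours, and at −0.17 without both acinar-rich libraries.

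Over all genes, the count of calls went from 0 to 118 with the DESeq2 Wald test and to 44 with the replicate block, and was 1090 at an unadjusted p under 0.05, of which 1 was a clock gene. The cause was not tested. The replicate numbers do not pair the samples by the labels. Deviations of same-numbered tumours from their group means correlated at −0.25 (replicate 1) and 0.26 (replicate 2) over the genes tested. Those of the tumours at 4 °C are mirror images of each other, so these correlations are not separate checks. With the block, Per2 stood at 0.11 and Clock at 0.12, and no clock or listed gene was called. No gene of the other 4 lists was called under any alternative.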

Other observations

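Per1 also answers to glucocorticoids and to the signals that switch on immediate early genes, which were read from lists of their own. Of 8 glucocorticoid-responsive genes, none passed the adjusted threshold of edgeR or DESeq2, none had an unadjusted p under 0.05, and 4 had a log2 fold change above 0. Tsc22d3, which encodes the glucocorticoid-induced leucine zipper and is also on the list of genes that follow the clock, stood at 191, 73.4 and 170 CPM at 30 °C and at 273 and 197 CPM at 4 °C (log2 fold change 0.70, standard error 0.40, edgeR adjusted p = 0.80). Sgk1, a kinase induced by the same hormones, stood at 40.9, 42.5 and 41.7 CPM at 30 °C and at 45.7 and 49.5 CPM at 4 °C (log2 fold change 0.19, standard error 0.16, edgeR adjusted p = 0.86). In both genes the tumours at 4 °C were above all 3 at 30 °C, as in 12.2% of all genes.

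Of 13 immediate early genes, none passed the adjusted threshold of edgeR or DESeq2, and none had an unadjusted p under 0.05. Log2 fold changes were above 0 in 11 of the 13, against 50.7% of all genes, with a median of 0.17. The 2 with the smallest p were Fosl2, at 37.8 ± 11.3 CPM (SD, n = 3) at 30 °C and 23.9 ± 3.36 CPM (SD, n = 2) at 4 °C (edgeR adjusted p = 0.75), and Jund, at 191 ± 7.42 CPM (SD, n = 3) and 242 ± 48.3 CPM (SD, n = 2, edgeR adjusted p = 0.78).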
